A study of Mus musculus with 9 samples.

Results

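Fibroblasts and the matrix they lay down were followed in the colonic mucosa through 10 genes, Pdgfra, Pdgfrb, Dcn, Lum, Thy1, Vim, Fn1, Sparc, Postn and Abi3bp, chosen by name. The choice was made with earlier results of these data known. The arrays carried 20 probe sets for these 10 genes, out of 45101 probe sets in all. A gene with several probe sets was followed on the brightest of them over the 9 arrays. All 10 were among the 11274 of 18194 genes that could be tested, a gene being tested where 3 or more arrays stood at log2 4 or above. Of the 20 probe sets, 19 passed the same filter.

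The tissue was colonic mucosa of male C57BL/6 mice aged 6 weeks, freed from the wall by PBS injected under it, with 3 arrays for each of 3 genotypes. hGAS mice carried an hGas transgene, whose promoter is not given in the sources used here. GasKO mice were Gas-/-, without the gene for gastrin and its precursor progastrin, and WT mice were wild type. Nothing in the labels says that the 3 samples of a genotype came from separate mice, and the p-values cover no more than the spread among them, which may be technical.

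Fibroblasts of the intestinal lamina propria sit beneath the epithelium and supply it with matrix and with signals for growth and differentiation. Platelet-derived growth factors act on them through a pair of receptor tyrosine kinases, PDGFRA and PDGFRB, of which PDGFRA marks subepithelial fibroblasts and PDGFRB is shared with pericytes. Decorin and lumican are small leucine-rich proteoglycans that bind collagen fibrils, and fibronectin, SPARC and periostin are secreted glycoproteins that connect cells with the matrix.

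The median log2 value of an array was 4.13 to 4.16. Arrays of 1 genotype correlated at 0.990 to 0.996 and those of different genotypes at 0.971 to 0.992. The gene targeted in GasKO mice, Gast, was at background in all groups (1.95 ± 0.01 in hGAS, 2.08 ± 0.08 in GasKO and 1.96 ± 0.02 in WT; log2, SD, n = 3 each), so this probe set checks no genotype label. The log2 difference between 3' and 5' probe sets of Gapdh, a sign of RNA quality, was -0.154 to -0.0683 in hGAS, -0.117 to -0.0885 in GasKO and -0.176 to -0.138 in WT. GasKO did not overlap WT in that sign. The same difference for actin was 0.879 to 0.938 in hGAS, 0.872 to 0.938 in GasKO and 0.763 to 0.888 in WT, and there GasKO overlapped WT. The part of RNA quality in the results was not tested. All 7 epithelial markers listed were tested and so were all 9 smooth muscle markers, whose mean log2 value over the list was 12.0 to 12.2 in each genotype, and the collagen genes Col1a1, Col1a2, Col3a1 and Col6a1 that define fibroblasts with Pdgfra, Dcn and Lum were all tested as well.

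Mucosa of GasKO mice had more transcript of several of the 10 fibroblast genes than WT mucosa. In GasKO vs WT, Thy1 rose 1.70-fold, Pdgfra 1.30-fold, Dcn 1.19-fold and Abi3bp 1.19-fold, each at a limma adjusted p under 0.05. That is 4 of 10 members called higher, where 6.63% of all genes tested were, and 0 called lower, where 5.48% were. The members were chosen with earlier results of these data known, so setting them beside all genes is no independent test. The secreted glycoprotein genes Fn1, Sparc and Postn were not called in any comparison without a replicate block, and with the block Sparc was called higher in hGAS vs GasKO (0.17, adjusted p = 0.0443). In hGAS vs WT a single member was called, Abi3bp, which fell. In bulk tissue, fewer cells of a type and less RNA per cell cannot be told apart.

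**Figure D1:**
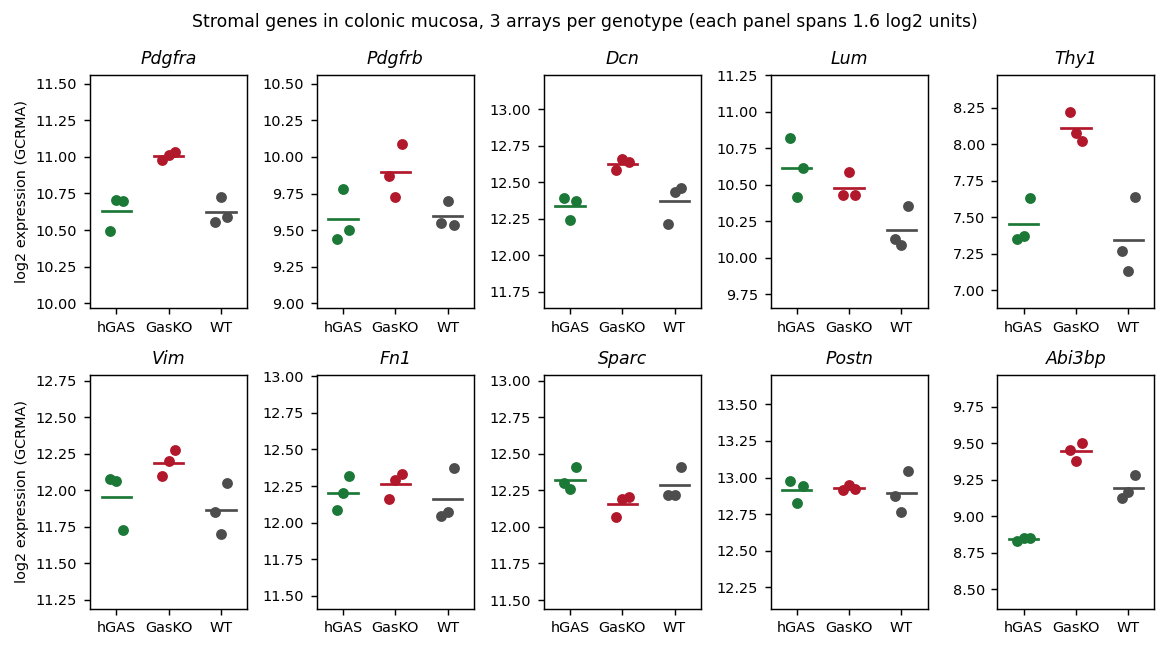
Log2 expression (GCRMA, vertical axis) of each of the 10 genes in hGAS, GasKO and WT mucosa. Points are arrays, 3 per genotype, horizontal bars are means, and each panel spans the same log2 range. The 3 GasKO points lie above all WT points for Pdgfra, Pdgfrb, Dcn, Lum, Thy1, Vim and Abi3bp, and below them for Sparc.

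Windows upstream of a transcript start are shown for Pdgfra and Vim, with called probe sets in GasKO vs WT, and for Postn and Sparc, with none. They hold the 250 bases before a start annotated by RefSeq in GRCm38.p6, and are shown for 4 of the 10 members. That the other members are not shown does not mean that they lack such a start. Capitals mark TATAAA and CCAAT, searched with GGGCGG on both strands, and the letters of these motifs do not overlap. Of 32851 windows of the same length, 12.4% hold TATAAA, 33.8% CCAAT and 32.7% GGGCGG.
Pdgfra, chr5:75152001-75152250, + strand: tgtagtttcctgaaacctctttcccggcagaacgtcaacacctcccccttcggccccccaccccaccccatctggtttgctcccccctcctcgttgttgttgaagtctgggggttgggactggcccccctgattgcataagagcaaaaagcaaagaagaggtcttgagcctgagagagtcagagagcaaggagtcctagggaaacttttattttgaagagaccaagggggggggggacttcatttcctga
Vim, chr2:13574061-13574310, + strand: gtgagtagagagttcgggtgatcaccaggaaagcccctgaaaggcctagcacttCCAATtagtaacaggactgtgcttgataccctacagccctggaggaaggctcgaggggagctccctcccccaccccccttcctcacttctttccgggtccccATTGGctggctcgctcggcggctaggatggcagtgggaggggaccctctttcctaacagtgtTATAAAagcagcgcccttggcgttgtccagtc
Postn, chr3:54360857-54361106, + strand: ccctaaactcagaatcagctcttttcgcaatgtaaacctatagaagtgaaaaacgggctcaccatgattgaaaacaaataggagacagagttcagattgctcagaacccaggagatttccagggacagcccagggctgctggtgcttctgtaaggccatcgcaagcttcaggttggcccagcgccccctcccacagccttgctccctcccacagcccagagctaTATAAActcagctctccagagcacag
Sparc, chr11:55420081-55420330, - strand: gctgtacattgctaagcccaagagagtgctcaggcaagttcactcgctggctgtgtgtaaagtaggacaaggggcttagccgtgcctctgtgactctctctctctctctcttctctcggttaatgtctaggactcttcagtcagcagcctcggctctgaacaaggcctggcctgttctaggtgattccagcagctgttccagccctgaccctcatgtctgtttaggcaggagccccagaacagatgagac
The Vim window holds TATAAA with its first base at -32 from the start, CCAAT at -196 and its reverse complement at -94. The Postn window shown, the one of the gene's later start, holds TATAAA at -26. The window of its earlier start, 40.4% G and C, is not shown and holds none of the 3 motifs. None of the 3 motifs is in the Pdgfra or Sparc window, whose shares of G and C are 54.4% and 54%, against a median of 52.4% over all windows.

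Among the growth factor receptors, Pdgfra had log2 values of 10.50, 10.70 and 10.70 in hGAS arrays, 10.98, 11.01 and 11.03 in GasKO arrays and 10.56, 10.72 and 10.59 in WT arrays. All GasKO values lay above all others, and the hGAS values overlapped the WT values. The log2 change was 0.38 in GasKO vs WT (SE 0.07, adjusted p = 0.00491) and -0.37 in hGAS vs GasKO (adjusted p = 0.00455). It was 0.01 in hGAS vs WT, with a 95% interval from -0.14 to 0.16. A second Pdgfra probe set (1438946_at) was also called higher in GasKO than in WT, at log2 0.46 (adjusted p = 0.0115 over all probe sets). The third, 1421916_at, stood at 0.16 in that comparison (adjusted p = 0.447) and was called lower in hGAS than in GasKO, at -0.49 (adjusted p = 0.0233).

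Pdgfrb, the other receptor, had log2 values of 9.44, 9.78 and 9.50 in hGAS, 9.87, 9.73 and 10.09 in GasKO and 9.55, 9.70 and 9.53 in WT. GasKO lay above WT without overlap, by 0.30 on the log2 scale (SE 0.11), but the adjusted p was 0.121. The change in hGAS vs GasKO was -0.32 (adjusted p = 0.0786), with 1 hGAS array, replicate 2, inside the GasKO range. It was called without that array (-0.43, adjusted p = 0.0297). In all it was called in only 2 of 20 alternatives, with limma adjusted p up to 0.238. The change in hGAS vs WT was -0.02 (95% interval -0.27 to 0.23). The weaker Pdgfrb probe set stood at 0.20, -0.28 and -0.08 in the same 3 comparisons and was called in none.

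Of the PDGF ligand genes, Pdgfa, Pdgfb, Pdgfc and Pdgfd, all 4 were tested and 1 was called. Of all genes, 12.1% were called in GasKO vs WT and 16.6% in hGAS vs GasKO. Pdgfd, whose product activates PDGFRB, fell in GasKO. Its log2 values were 7.09, 7.03 and 6.87 in hGAS, 5.40, 5.03 and 5.54 in GasKO and 6.88, 7.16 and 7.23 in WT. The GasKO arrays were low and apart from both other genotypes, whose values overlapped. The log2 change was -1.77 in GasKO vs WT (SE 0.14, adjusted p = 4.3e-05) and 1.67 in hGAS vs GasKO (adjusted p = 5.1e-05). Only 1 of the 3 Pdgfd probe sets passed the filter, and with all 3 averaged the changes were -0.62 and 0.58, both still called.

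The proteoglycan genes Dcn and Lum are next to each other on chromosome 10, with 0 annotated genes between them. Dcn, which encodes decorin, had log2 values of 12.39, 12.24 and 12.37 in hGAS, 12.58, 12.66 and 12.64 in GasKO and 12.22, 12.43 and 12.46 in WT. GasKO was again above both other genotypes in each array. The change was 0.26 in GasKO vs WT (SE 0.07, adjusted p = 0.0374) and -0.29 in hGAS vs GasKO (adjusted p = 0.0185), while in hGAS vs WT it was -0.03 (95% interval -0.19 to 0.12). The GasKO vs WT call was kept in only 9 of 20 alternatives. It was lost without WT replicate 1 or 2, any GasKO replicate or hGAS replicate 3, with adjusted p up to 0.114, and the hGAS vs GasKO call was lost without GasKO replicate 2, GasKO replicate 3 or hGAS replicate 2, with adjusted p up to 0.0648. Both calls were also lost with probe sets averaged (adjusted p = 0.0655 and 0.0705). The GasKO vs WT call was lost too with no filter, after median centring, without the mean-variance trend and in the fit to 6 arrays. A dim Dcn probe set, 1441506_at, averaged 3.90 in hGAS, 4.24 in GasKO and 3.81 in WT. It stood at 0.43 in GasKO vs WT (adjusted p = 0.213) and was called in no comparison.

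Lum, which encodes lumican, had log2 values of 10.82, 10.42 and 10.62 in hGAS, 10.43, 10.58 and 10.43 in GasKO and 10.13, 10.09 and 10.36 in WT. Both hGAS and GasKO lay above WT without overlap, and they overlapped each other. The change in hGAS vs WT was 0.43 (SE 0.10, 1.34-fold, adjusted p = 0.0926), the most positive of the 10 members there, and it was called in 0 of 20 alternatives. In GasKO vs WT it was 0.29 (adjusted p = 0.117) and in hGAS vs GasKO 0.14 (adjusted p = 0.410). The other 9 proteoglycans of the leucine-rich family that were listed gave 6 tested genes. None of these was called against WT, and in hGAS vs GasKO Aspn, the asporin gene, rose by 0.63 (adjusted p = 0.00770) while Prelp and Podn fell by 0.32 and 0.31 (adjusted p = 0.0399 and 0.0497). Of all genes, 12.1% were called in GasKO vs WT, 1.16% in hGAS vs WT and 16.6% in hGAS vs GasKO. The Podn call was kept in 6 of 20 alternatives and was lost with the replicate block (adjusted p = 0.0656), and the Prelp call was kept in 14.

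Thy1 encodes a membrane glycoprotein of fibroblasts that in mice is also present on T cells and neurons. Its log2 values were 7.35, 7.37 and 7.63 in hGAS, 8.22, 8.08 and 8.02 in GasKO and 7.27, 7.13 and 7.64 in WT. The GasKO arrays were high and apart, and hGAS overlapped WT. The change was 0.76 in GasKO vs WT (SE 0.13, adjusted p = 0.00484), the largest of the members in that comparison, and -0.65 in hGAS vs GasKO (1.57-fold, adjusted p = 0.00870), and both calls were kept in all 20 alternatives. Of the T cell markers listed, Cd3e, Cd3g, Cd3d, Cd4, Cd8a and Cd2 were annotated and 0 of these 6 passed the filter. Their highest value in any array was 4.07, that of Cd2 in GasKO replicate 1, and Cd3e lay between 2.17 and 2.42 in all arrays.

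Vim encodes vimentin, the intermediate filament protein of mesenchymal cells that leukocytes and endothelium also contain. On the probe set that represented it, 1438118_x_at, log2 values were 12.08, 12.06 and 11.73 in hGAS, 12.10, 12.20 and 12.28 in GasKO and 11.85, 11.70 and 12.05 in WT. The change of 0.32 in GasKO vs WT was not called (adjusted p = 0.0929). The other Vim probe sets stood at 0.39 and 0.33 in that comparison and were both called (adjusted p = 0.0206 and 0.0477 over all probe sets). On all 3 the GasKO arrays lay above the WT arrays without overlap. The representing probe set was called without WT replicate 3 (0.41, adjusted p = 0.0445) or hGAS replicate 3 (adjusted p = 0.0446). In all, Vim was called in only 4 of 20 alternatives in GasKO vs WT, with limma adjusted p up to 0.264.

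Macrophage and leukocyte markers were called in the same comparisons as Thy1. Of 8 tested, 5 rose in GasKO vs WT and 6 fell in hGAS vs GasKO, with 0 called in hGAS vs WT. Of all genes, 6.63% were called higher in GasKO vs WT and 8.51% lower in hGAS vs GasKO. In hGAS vs WT 1.16% of all genes were called. Ptprc, the common leukocyte antigen gene, had log2 values of 8.28, 8.16 and 8.18 in hGAS, 9.58, 9.01 and 9.36 in GasKO and 8.67, 8.42 and 8.24 in WT. It rose by 0.87 on the log2 scale in GasKO vs WT (limma adjusted p = 0.00386). Cd163, Mpeg1 and Lyz2, which mark macrophages, rose by 0.67, 0.58 and 0.52 in GasKO vs WT. Without GasKO replicate 1 the Mpeg1 and Lyz2 calls were lost (adjusted p = 0.0712 and 0.0584). The summed linear level of the 8 markers was 3651 to 4690 in hGAS, 6113 to 6889 in GasKO and 4542 to 4609 in WT. The part of leukocytes in the Thy1 and Vim values was not tested.

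Other stromal cell types showed no called marker in any of the 3 comparisons. Of all genes tested, 12.1%, 1.16% and 16.6% were called in GasKO vs WT, hGAS vs WT and hGAS vs GasKO. The lists are short, so the lack of a call says little about them. They held 9 smooth muscle and myofibroblast markers, 6 pericyte markers and 8 endothelial markers. The list medians were -0.03, -0.08 and 0.07 on the log2 scale in GasKO vs WT, where the median over all genes was 0.01. At an unadjusted p under 0.05 in limma, 2, 1 and 1 of these markers passed in GasKO vs WT, 0, 2 and 0 in hGAS vs WT, and 3, 1 and 3 in hGAS vs GasKO. The share of all genes passing that threshold was not counted. Over the 11274 genes tested, an unadjusted p of 0.0227 ranked 2113 in GasKO vs WT and 1 of 0.0315 ranked 2969 in hGAS vs GasKO. The 3 adipocyte markers tested of 7 listed were not called either, although their median was 1.20 in GasKO vs WT and all 3 had an unadjusted p under 0.05 there, and the 3 tested of 7 glial and neuronal markers and 1 tested of 4 mesothelial markers were likewise not called. The summed linear level of the 5 annotated adipocyte markers was 861 to 1546 in hGAS, 1639 to 2548 in GasKO and 706 to 1325 in WT. Of 7 epithelial markers only Epcam was called, at log2 0.35 in GasKO vs WT and -0.36 in hGAS vs GasKO. A single call among 7 markers is near the shares of all genes called in these comparisons.

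B and plasma cell markers, 5 tested, had 4 called higher and 0 lower in GasKO vs WT, 0 higher and 2 lower in hGAS vs WT, and 0 higher and 3 lower in hGAS vs GasKO. Of all genes, 6.63% were called higher in GasKO vs WT. In hGAS vs WT and hGAS vs GasKO, 0.523% and 8.51% of all genes were called lower. Cd79a and Cd79b, which encode signalling chains of the B cell receptor, fell in hGAS vs WT, with log2 changes of -1.76 and -1.58, calls that were kept in 11 and 7 of 20 alternatives. The plasma cell genes Jchain and Mzb1 stood at 1.10 and 1.63 in that comparison (limma adjusted p = 0.0955 and 0.135), with hGAS arrays above WT arrays without overlap. All 5 markers had an unadjusted p under 0.05 there, a share that was not counted over all genes. The part of these cells in the members' values was not tested.

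Abi3bp encodes a secreted matrix protein that binds the adaptor ABI3. It was the one member called in all 3 comparisons. The log2 values were 8.83, 8.85 and 8.85 in hGAS, 9.45, 9.38 and 9.50 in GasKO and 9.13, 9.17 and 9.28 in WT. The genotypes did not overlap, with GasKO highest and hGAS lowest. The change was 0.25 in GasKO vs WT (SE 0.06, adjusted p = 0.0183), -0.35 in hGAS vs WT (1.27-fold lower, adjusted p = 0.0251) and -0.60 in hGAS vs GasKO (1.52-fold lower, adjusted p = 1.0e-04). Of all genes tested, 23 were called in all 3 comparisons (0.204%), and 15 of these (0.133%) stood in the order GasKO, WT, hGAS from high to low. The comparisons share arrays, so these calls are not independent.

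The calls of Abi3bp against WT were kept in 14 of 20 alternatives for GasKO and 11 for hGAS, and that between hGAS and GasKO in all 20. The GasKO vs WT call was lost without WT replicate 1, WT replicate 2, GasKO replicate 1 or GasKO replicate 3 (adjusted p up to 0.0754). The hGAS vs WT call was lost without WT replicate 2, WT replicate 3, GasKO replicate 1 or any hGAS replicate (adjusted p up to 0.0983), and in the fit to 6 arrays (0.0940). Both calls were also lost with probe sets averaged (adjusted p = 0.0748 for GasKO and 0.110 for hGAS). With probe sets designed for 1 transcript, 1427053_at replaced the representing 1427054_s_at, and both were lost again (0.281 and 0.332). This second probe set, 1427053_at, gave the same order of genotype means, at 7.46 in hGAS, 7.92 in GasKO and 7.71 in WT. It was called in hGAS vs GasKO (log2 -0.46, adjusted p = 0.0217) but not in GasKO vs WT (0.21, adjusted p = 0.281) or hGAS vs WT (-0.26, adjusted p = 0.345).

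Fn1, Sparc and Postn, the fibronectin, SPARC and periostin genes, were not called in the fit without a replicate block. Fn1 ranged from 12.09 to 12.32 in hGAS, 12.16 to 12.33 in GasKO and 12.05 to 12.37 in WT on the log2 scale. Its change in GasKO vs WT was 0.10, with a 95% interval from -0.11 to 0.30. Postn ranged from 12.83 to 12.97 in hGAS, 12.92 to 12.95 in GasKO and 12.76 to 13.04 in WT. Its 95% intervals ran from -0.12 to 0.19 in GasKO vs WT, from -0.13 to 0.18 in hGAS vs WT and from -0.17 to 0.14 in hGAS vs GasKO. These intervals cover only the spread among the arrays and set no firm limit on the change.

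Sparc was the member with the opposite direction. Its log2 values were 12.30, 12.26 and 12.41 in hGAS, 12.07, 12.19 and 12.21 in GasKO and 12.22, 12.22 and 12.41 in WT. GasKO lay lowest, without overlap with hGAS or WT, yet the change was only -0.13 in GasKO vs WT (adjusted p = 0.262) and 0.17 in hGAS vs GasKO (SE 0.07, adjusted p = 0.120). With the replicate number as a block over all arrays, Sparc was called higher in hGAS than in GasKO (adjusted p = 0.0443). Whether same-numbered arrays are pairs is not known, and Sparc was called there in only 1 of 20 alternatives. Another probe set of similar signal, 1416589_at, gave -0.13 and 0.19 in the same comparisons, and the last one was at background, between 3.05 and 3.14 in all arrays.

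**Figure D2:**
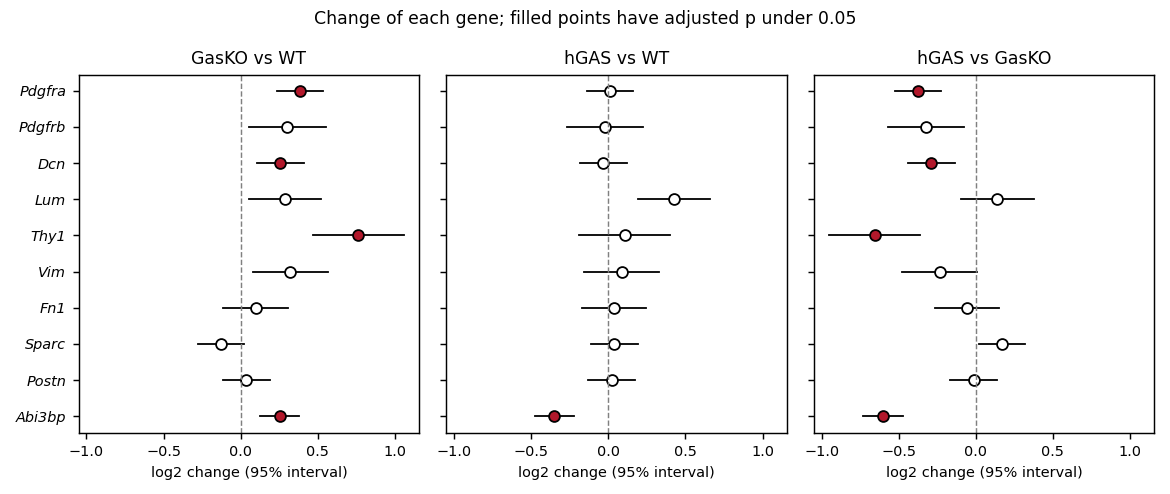
Log2 change of each of the 10 genes (rows) in 3 comparisons (panels), with its 95% interval. Filled points passed an adjusted p of 0.05, and 4, 1 and 4 genes did so in GasKO vs WT, hGAS vs WT and hGAS vs GasKO.

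Over the 10 members, 9 had a positive log2 change in GasKO vs WT, with a median of 0.27, where the median over all genes tested was 0.01. The arrays of 7 members, the 4 called ones among them, lay higher in GasKO than in WT without overlap, against 16.1% of all genes, and 1 lay lower, against 15%. In hGAS vs WT, 1 of 10 was called lower, where 0.523% of all genes were, and the median change was 0.03. Without overlap, Lum lay higher, against 9.35% of all genes, and Abi3bp lower, against 8.36%. In hGAS vs GasKO, 4 members were called lower, where 8.51% of genes were, and 0 higher, where 8.05% were; with the replicate block Sparc was also called, higher. Without overlap, 5 lay lower, against 18.4% of all genes, and Sparc lay higher, against 18.2%. The GasKO arrays stand in both GasKO vs WT and hGAS vs GasKO, so these counts share samples.

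By probe set, 7 of the 19 tested were called higher in GasKO vs WT, where 5.73% of all 19834 probe sets were, and 0 lower, where 5.27% were. Between hGAS and GasKO 6 were called lower, where 7.59% were, and 0 higher, where 7.15% were, and in hGAS vs WT 1 was called lower, where 0.429% were. Probe sets of the same gene measure the same transcript and are not independent.

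**Figure D3:**
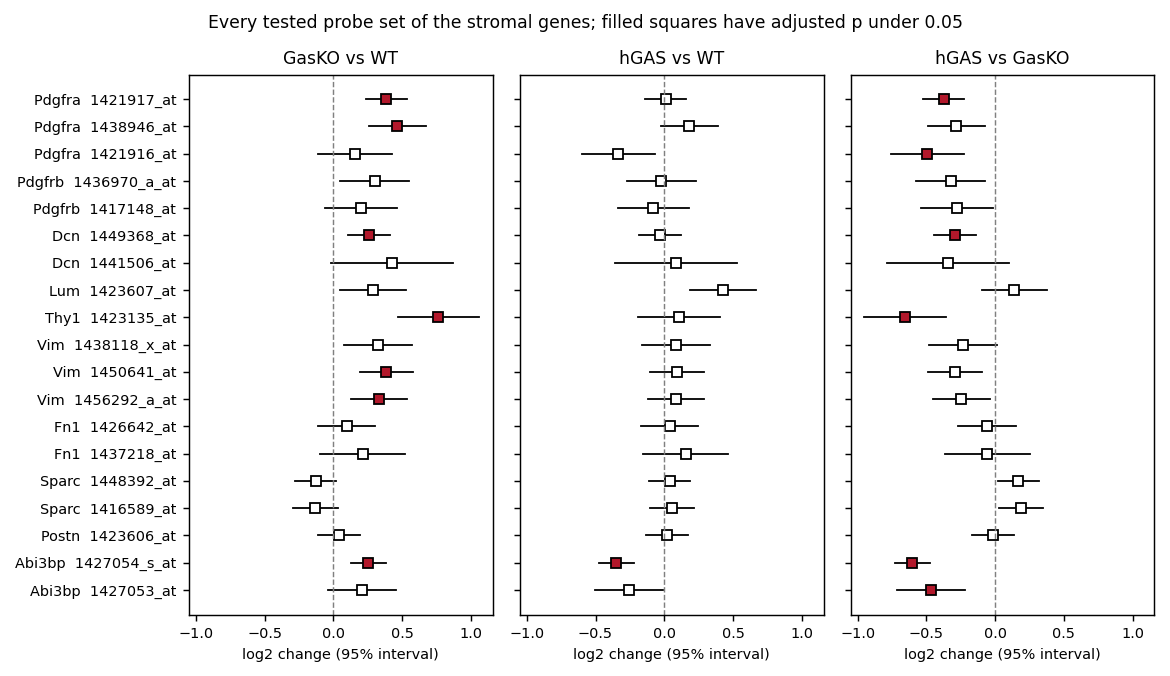
Log2 change with 95% interval of all 19 tested probe sets of the stromal genes (rows) in 3 comparisons (panels). Filled squares passed an adjusted p of 0.05 over all probe sets; Vim is called on 2 of its 3 probe sets in GasKO vs WT and Abi3bp on both of its probe sets in hGAS vs GasKO.

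The members' mean deviation from their own means over the 9 arrays was -0.08 to -0.04 in hGAS, 0.13 to 0.20 in GasKO and -0.17 to 0.02 in WT. WT replicate 3 was the highest WT array. Within genotypes, after each genotype's mean was taken off, the 45 pairs of members had correlations over the 9 arrays from -0.78 (Pdgfrb with Lum) to 0.91 (Fn1 with Sparc), with a median of 0.34 and 36 of them positive. Dcn and Lum correlated at 0.62 on this measure. These values describe 9 arrays that share one normalisation.

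The genes whose values over the 9 arrays were most like the members' mean were Ccdc141, 2610301B20Rik, Hdac5, Eml3 and Wipf1, with Pearson r from 0.961 to 0.976. Those most opposed were Elovl6, Epm2aip1, Zfp746, Faap20 and Hdhd2, with r from -0.964 to -0.960. Of the first, Hdac5, a histone deacetylase gene, averaged 6.87 in hGAS, 7.30 in GasKO and 6.90 in WT. Of the second, Elovl6, a fatty acid elongase gene, averaged 9.47 in hGAS, 8.99 in GasKO and 9.47 in WT.

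Lists of related stromal genes, 8 in all with 85 genes tested, had 13 genes called higher and 3 lower in GasKO vs WT, which is 18.8% against 12.1% of all genes. The lists too were chosen with earlier results of these data known. None of the 85 was called by limma in hGAS vs WT, where 1.16% of genes were. Of the 85, 18 had an unadjusted p under 0.05 there, a share that was not counted over all genes. Over all 19834 probe sets tested, an unadjusted limma p of 0.0429 ranked 2462 in that comparison. In hGAS vs GasKO 21 were called lower and 5 higher, or 30.6% against 16.6% of all genes. Their median changes in these comparisons were 0.06, 0.00 and -0.04 on the log2 scale.

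Elastic fibre and fibulin genes split. Of 11 tested, 3 rose and 1 fell in GasKO vs WT, where 6.63% of all genes were called higher and 5.48% lower. Fbln2, which encodes the matrix linker fibulin-2, had log2 values of 6.83, 7.18 and 7.18 in hGAS, 7.92, 7.88 and 7.97 in GasKO and 7.08, 7.09 and 7.30 in WT, and its change was 0.77 (adjusted p = 0.00141). Eln, the elastin gene, had 9.11, 9.20 and 9.36 in hGAS, 8.52, 8.69 and 8.72 in GasKO and 9.28, 9.08 and 9.60 in WT, and its change was -0.68 (adjusted p = 0.00632). For both genes GasKO stood apart from hGAS and WT, in opposite directions. Efemp1, a fibulin gene, and Ltbp1, whose product tethers latent TGF-beta to the matrix, rose by 0.40 and 0.45. Averaging over probe sets gave a change of 0.38 for Fbln2, still called, and 0.14 for Ltbp1, no longer called.

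Among matricellular and fibronectin-binding genes 4 of 17 rose in GasKO vs WT and none fell. Of all genes, 6.63% were called higher there and 5.48% lower. Itga8, an integrin subunit gene whose product binds fibronectin, had log2 values of 7.83, 7.82 and 7.87 in hGAS, 8.71, 8.71 and 8.54 in GasKO and 8.03, 8.06 and 7.96 in WT. The 3 genotypes did not overlap, and the change was 0.64 in GasKO vs WT (adjusted p = 2.0e-04) and -0.81 in hGAS vs GasKO (adjusted p = 3.3e-05), kept in all 20 alternatives. Spon1, the spondin gene, Lamc1, a laminin chain gene, and Itgb1, the integrin beta partner, rose by 0.44, 0.34 and 0.27, of which the Lamc1 and Itgb1 calls were each kept in 15 of 20 alternatives. With probe sets averaged these stood at 0.20 (adjusted p = 0.121) and 0.13 (adjusted p = 0.140), not called. The Lamc1 call was also lost without WT replicate 1, WT replicate 2, GasKO replicate 2 or GasKO replicate 3, and the Itgb1 call without WT replicate 1, WT replicate 2, GasKO replicate 1 or GasKO replicate 2. Tnc, the tenascin gene, rose in hGAS vs GasKO by 0.31, where Itga8, Spon1 and Lamc1 fell. The Tnc change was 0.26 with probe sets averaged and no longer called (adjusted p = 0.0644), and the Lamc1 call was kept in 14 of 20 alternatives.

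Of 13 collagen chain genes only Col14a1 was called, at 0.25 in GasKO vs WT (adjusted p = 0.0402) and -0.23 in hGAS vs GasKO (adjusted p = 0.0464). Of all genes, 12.1% and 16.6% were called in these comparisons, and a single call among 13 is under both shares. The Col14a1 calls were kept in 5 and 8 of 20 alternatives, and with the replicate block the second had an adjusted p of 0.0581. Col1a1 had log2 values of 11.11, 11.27 and 11.26 in hGAS, 10.68, 11.00 and 10.91 in GasKO and 11.02, 11.11 and 11.48 in WT. GasKO lay below both other genotypes without overlap, though Col1a1 was not called. For Col1a2, Col3a1 and Col6a1 the GasKO and WT values overlapped. Of 8 collagen processing genes only Plod1, a lysyl hydroxylase gene, was called, at -0.28 in GasKO vs WT (adjusted p = 0.0380, kept in 10 of 20 alternatives) and 0.34 in hGAS vs GasKO (adjusted p = 0.0127). A single call among 8 genes is near the shares of all genes called. With probe sets averaged Plod1 stood at -0.15, not called, and 0.21, still called.

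Markers of gut fibroblast subtypes had a median change of 0.22 in GasKO vs WT and -0.34 in hGAS vs GasKO. Of 15 tested, 4 rose in GasKO vs WT and none fell, where 6.63% of all genes were called higher and 5.48% lower. Cxcl12, a chemokine gene, rose by 0.52 (adjusted p = 5.0e-04), Bmp5, a bone morphogenetic protein gene of subepithelial fibroblasts, by 0.68 (adjusted p = 0.00422), S100a4 by 0.64 and Cd34 by 0.29. The S100a4 and Cd34 calls were kept in 13 and 10 of 20 alternatives, and leukocytes also express S100a4. Between hGAS and GasKO 7 fell and none rose, where 8.51% of all genes were called lower and 8.05% higher. Wnt5a, a non-canonical Wnt ligand gene, fell by 0.74 (adjusted p = 0.00180), Tcf21 and Foxf1, mesenchymal transcription factor genes, by 0.71 and 0.45, and Cxcl12 by 0.34. With probe sets averaged these changes were -0.46 for Wnt5a, -0.24 for Foxf1 and -0.21 for Cxcl12, and Cxcl12 stood at 0.29 in GasKO vs WT, all still called.

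Of 11 TGF-beta pathway genes, only Tgfbr3, the coreceptor betaglycan, was called in GasKO vs WT, at 0.43 (adjusted p = 0.00661), and it stood at 0.24 and was not called with its probe sets averaged. A single call among 11 genes is near the 12.1% of all genes called there. Of the 11 pathway genes 5 fell and none rose in hGAS vs GasKO, where 8.51% of all genes were called lower and 8.05% higher. Tgfbr3 stood at -0.55, the ligand gene Tgfb1 at -0.43, the inhibitor gene Smad7 at -0.39 and the receptor gene Tgfbr2 at -0.32 (adjusted p = 0.00141, 0.0115, 0.00420 and 0.00549). With probe sets averaged the changes were -0.21 for Tgfb1 and -0.26 for Smad7, both still called, and -0.17 for Tgfbr2, not called (adjusted p = 0.0852).

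**Figure D4:**
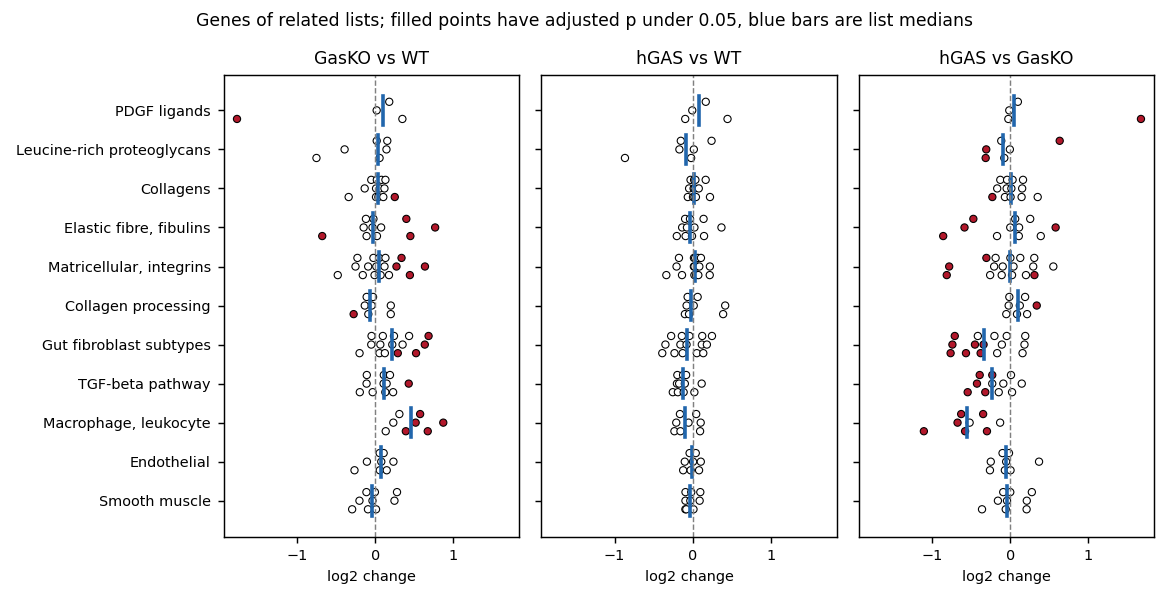
Log2 change (horizontal axis) of each tested gene of 11 lists (rows) in 3 comparisons (panels). Filled points passed an adjusted p of 0.05 and blue bars are list medians; in hGAS vs WT no gene of these lists is filled, and the point farthest left in GasKO vs WT is Pdgfd at -1.77.

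**Figure D5:**
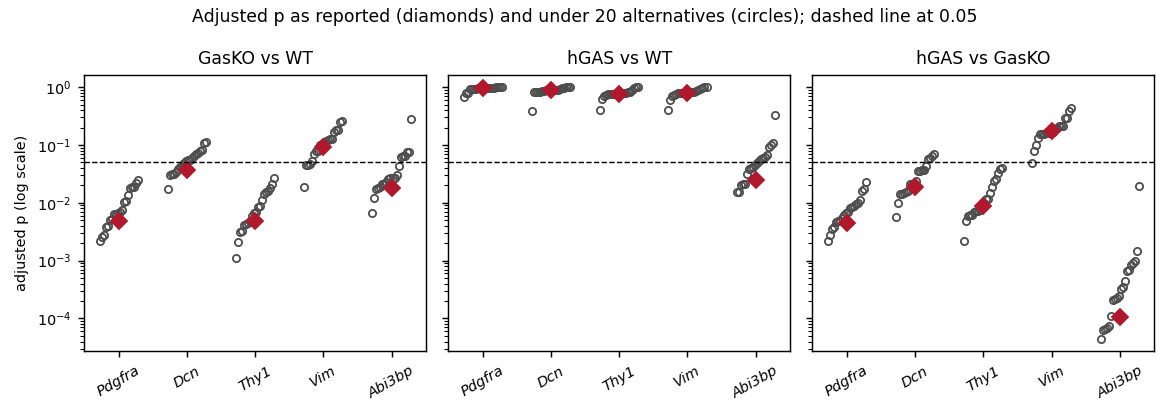
Adjusted p (log axis) of 5 genes as reported (diamonds) and under 20 alternatives (circles) in 3 comparisons, with a dashed line at 0.05. For Pdgfra and Thy1 all circles lie under the line in GasKO vs WT and in hGAS vs GasKO, while those of Dcn and Vim lie on both sides of it in GasKO vs WT.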

How the data were processed

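Mouse expression arrays gave 1 value per probe set and sample. GCRMA is the tool that the submitters' processing notes name, without a version. The log2 values were used as deposited, with no further normalisation. Probe sets took gene symbols from the platform annotation, in which 34958 had 1 gene, 932 several and 9211 none, and those with several or none were left out. Means of the 3 genotypes were estimated from the 9 arrays together in limma 3.58.1 under R 4.3.3 (lmFit, then eBayes with a mean-variance trend), once with 1 probe set a gene and once with all 19834 probe sets that passed the filter. Tests were 2-sided, with Benjamini-Hochberg adjustment over all features and calls at an adjusted p under 0.05. The number of arrays limits precision.

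Members, lists and tests were chosen with earlier results of these data known. All members are named, with up to 4 called genes of each list per comparison (those with the smallest p), Gast, and the 5 genes most like and most unlike the members' mean. Genes named beyond this rule were chosen after their values were seen. Replicate numbers are shared between genotypes. Deviations of same-numbered arrays from their genotype means correlated at 0.117 to 0.267 for hGAS vs GasKO, all over 0.1. For the comparisons with WT they correlated at -0.01 to 0.254. Arrays with different numbers were not compared, so these values cannot decide whether the numbers pair arrays. The replicate block was fitted over all arrays, WT included, and no fit paired only hGAS with GasKO. Array batches were not given in the sources used here. Alternatives changed the filter, the scaling, the probe set taken, the eBayes options, array weighting, the arrays fitted, the threshold and the block, or left out 1 array. Plots came from matplotlib 3.10.9 (Python 3.11.15).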

Additional observations from a re-analysis of the deposited data

How the results depend on the processing

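Pdgfra and Thy1 kept their calls in GasKO vs WT and hGAS vs GasKO under all 20 alternatives, and so did Abi3bp in hGAS vs GasKO. Members called in GasKO vs WT numbered 2 at an adjusted p of 0.01 and 2 to 5 with 1 array left out, and 7 called probe sets became 2 and 3 to 7. In hGAS vs WT the single call became 0 at 0.01, in the fit to 6 arrays, with probe sets averaged and with probe sets designed for 1 transcript, 2 at 0.1, and 0 to 1 with 1 array left out; by probe set it became 0 at 0.01, with no filter, in the fit to 6 arrays, and 0 to 1. In hGAS vs GasKO members called were 3 to 4 with 1 array left out, and probe sets called were 2 at 0.01 and 4 to 8.

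Genes called in all numbered 674 at 0.01 and 888 to 1375 with 1 array left out in GasKO vs WT, the lowest without GasKO replicate 1. In hGAS vs WT they numbered 21 at 0.01, 340 at 0.1, 58 with no filter, 27 in the fit to 6 arrays, and 26 to 104, the lowest without hGAS replicate 1. In hGAS vs GasKO they numbered 898 at 0.01, and 1219 to 1996, the lowest without GasKO replicate 3. With the replicate block, genes called numbered 1558 in GasKO vs WT, 283 in hGAS vs WT and 2087 in hGAS vs GasKO, and the only member whose call changed was Sparc in hGAS vs GasKO. Where fewer arrays entered, precision was lower; other causes were not tested.

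Signs turned only for uncalled changes near 0. In hGAS vs WT, Pdgfra was at -0.0043 after quantile normalisation, -0.0037 after median centring and -0.0478 with probe sets averaged, and ranged from -0.0253 to 0.0778 with 1 array left out. Dcn there was at 0.0053 with array weights and 0.0273 with probe sets averaged, and from -0.110 to 0.0142. With 1 array left out, Pdgfrb ran from -0.126 to 0.0464, Fn1 from -0.0205 to 0.143, Sparc from -0.0039 to 0.104 and Postn from -0.0419 to 0.0982 in hGAS vs WT, and Postn from -0.0272 to 0.113 in GasKO vs WT and from -0.0447 to 0.0295 in hGAS vs GasKO.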

Other observations

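The 3 WT arrays had exactly the same value, 7.71, on the Abi3bp probe set 1427053_at, while its GasKO values ran from 7.74 to 8.12 and its hGAS values from 7.26 to 7.61. Such ties within a genotype were rare. All 3 arrays were equal on 59 of 19834 tested probe sets in hGAS, 49 in GasKO and 55 in WT, and at least 2 were equal on 1076, 990 and 1090. The spread of such a probe set is understated in the tied genotype. The representing Abi3bp probe set had 9 distinct values over the 9 arrays.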
